A study of Mus musculus with 6 samples.

Results

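The Tcl1 family cluster of mouse chromosome 12 holds 6 protein-coding genes, Tcl1 and Tcl1b1 to Tcl1b5, and their transcripts were followed here in metaphase II (MII) oocytes matured in vitro (IVM) or in vivo (IVO). The members were taken by gene name and Ensembl identifier, and all 6 were found among the 60193 genes listed, of which 53700 carry an Ensembl identifier. The oocytes came from ICR mice aged 42 to 45 weeks, a naturally aged model near the end of reproductive life, and all mice had received 5 IU of PMSG, which stimulates follicle growth. For IVM, germinal vesicle oocytes were taken from the ovary 46 h later, stripped of their cumulus cells and cultured in M16 medium for 12 h. For IVO, 5 IU of hCG was injected 46 h after PMSG to trigger ovulation, and oocytes were flushed from the oviduct 14 h after hCG and freed of cumulus cells with hyaluronidase. Each group had 3 samples, and each sample pooled 20 oocytes from 3 mice, so the spread between samples is that between pools.

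The TCL1 proteins are small and carry no catalytic activity of their own. Human TCL1A, TCL1B and MTCP1 are known to bind the kinase AKT and to raise its activity, and TCL1A was found as an oncogene of T-cell leukemia. In the mouse, Tcl1 is expressed in oocytes, cleavage-stage embryos, embryonic stem cells and lymphocyte precursors, and maternal Tcl1 is needed for normal early cleavage. The mouse carries several Tcl1b genes where the human genome has one TCL1B, and little is known of what each mouse copy does.

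In GRCm39 the cluster spanned 76963 bases. On the + strand lay Tcl1b2 (chr12:105112273-105121484), then Tcl1b1 (chr12:105125949-105132884), Tcl1b5 (chr12:105142603-105147404), Tcl1b3 (chr12:105157302-105161871) and Tcl1b4 (chr12:105168216-105173252). Tcl1 itself (chr12:105183009-105189235) closed the cluster on the opposite strand, so that Tcl1b4 and Tcl1 converge. The gaps between neighbouring members were 4464 to 9897 bases.

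The sequence before the RefSeq start of the 5 Tcl1b genes is shown because it holds a stretch that all of them share. The lines give, from 5′ to 3′, the bases before the RefSeq transcription start that lie in no exon of the GENCODE transcript marked as canonical. Exons of other transcripts were not checked. Coordinates were found by exact match to GRCm39, and the capitals mark the shared stretch. The annotated span of Tcl1b2 begins farther upstream, so its printed bases lie within the gene. For Tcl1b4 the shared stretch alone is printed, since its start region lies in exon 1 of its canonical transcript.
Tcl1b2 (chr12:105113028-105113277, + strand): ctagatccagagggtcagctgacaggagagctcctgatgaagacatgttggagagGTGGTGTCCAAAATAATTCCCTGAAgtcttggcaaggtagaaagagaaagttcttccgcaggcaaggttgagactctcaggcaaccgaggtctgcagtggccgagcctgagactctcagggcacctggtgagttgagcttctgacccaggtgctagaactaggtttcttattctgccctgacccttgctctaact
Tcl1b1 (chr12:105125713-105125948, + strand): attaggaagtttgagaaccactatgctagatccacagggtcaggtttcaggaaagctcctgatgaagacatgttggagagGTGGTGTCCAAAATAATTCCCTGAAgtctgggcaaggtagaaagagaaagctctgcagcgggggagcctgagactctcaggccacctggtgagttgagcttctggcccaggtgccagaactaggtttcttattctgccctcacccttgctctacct
Tcl1b5 (chr12:105142353-105142602, + strand): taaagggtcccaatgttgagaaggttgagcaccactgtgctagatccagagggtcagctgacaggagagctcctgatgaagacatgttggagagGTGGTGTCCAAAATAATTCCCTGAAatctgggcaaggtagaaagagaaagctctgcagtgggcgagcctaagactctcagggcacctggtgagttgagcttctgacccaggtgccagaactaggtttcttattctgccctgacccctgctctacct
Tcl1b3 (chr12:105157054-105157301, + strand): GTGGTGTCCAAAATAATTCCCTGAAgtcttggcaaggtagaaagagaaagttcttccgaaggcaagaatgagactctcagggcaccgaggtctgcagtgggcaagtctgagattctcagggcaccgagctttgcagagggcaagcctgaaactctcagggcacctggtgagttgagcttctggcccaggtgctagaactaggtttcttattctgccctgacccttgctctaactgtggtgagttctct
Tcl1b4 (chr12:105168472-105168496, + strand): GTGGTGTCCAAAATAATTCCCTGAA

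The 25 bases in capitals were an exact run common to the parts searched, up to 250 bases before the RefSeq start of each Tcl1b gene. No longer run was common to these parts, and other runs of the same length were not listed. In Tcl1b3 the run began at the edge of the region searched, which sets its left end. The run lay 170 to 146 bases before the RefSeq start of Tcl1b1, 195 to 171 before that of Tcl1b2, 250 to 226 before that of Tcl1b3, 182 to 158 before that of Tcl1b4 and 156 to 132 before that of Tcl1b5. Of 32851 RefSeq start regions of the same length (250 bases before to 50 after the start, both strands searched), 5 (0.0152%) held the run, and these were the Tcl1b genes. The run was not in the start region of Tcl1. Over these regions the Tcl1b genes were 59.8% to 90.4% identical to each other (median 71.7% over 10 pairs), and Tcl1 was 45.7% to 48.8% identical to them.

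Short motifs were also searched. The E-box CANNTG was in all 6 start regions and in 72.3% of all start regions. The CCAAT box CCAAT was in that of Tcl1b5 alone and in 37.4% of all, and the GC box GGGCGG was in that of Tcl1 alone and in 35.7% of all. No member's region held TATAAA (13.6% of all), the octamer ATGCAAAT (1.74%) or TAATTG (8.0%), on either strand and with any overlap between motifs counted for each.

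The likeness of the copies bears on how well their reads can be told apart. The coding sequences of the 5 Tcl1b genes were 71.2% to 86.2% identical (median 76.5% over 10 pairs). Of all stretches of 150 bases, the length of 1 read, 33 in the Tcl1b2 transcript (3.84%) and 33 in that of Tcl1b3 (3.68%) occurred in both, within 1 run of 182 bases, and the other 4 members shared none with another member. Levels of Tcl1b2 and Tcl1b3 can thus depend on how RSEM, the authors' quantifier, divided such reads.

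The values are FPKM as deposited by the authors, in which fragments on a gene are scaled by transcript length and library size. The depth was inferred from the steps between low values, as 16500000 to 19300000 fragments in the IVM and 17800000 to 18200000 in the IVO samples, with 71.9% to 76.3% of the low values within 0.15 of a whole number of fragments. At this depth 3 fragments on a transcript of 1000 bases are worth 0.196 to 0.232 FPKM, far under any member, and counting error is small (0.614% to 0.776% for Tcl1b3 and 1.35% to 1.63% for Tcl1b5). These limits cover counting error only. The inferred mean fragment was 206 to 217 bases in IVM and 248 to 264 in IVO libraries, and the groups did not overlap. Of the markers of the labelled cell type, Gdf9, an oocyte growth factor, stood at 1028 to 1794 FPKM in IVM and at 964 to 1089 in IVO libraries.

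The members were abundant transcripts in every sample. Tcl1, the member nearest to the human oncogene, had 4266, 2432 and 2987 FPKM in the IVM samples and 5537, 4884 and 5262 FPKM in the IVO samples. Every IVO sample lay above every IVM sample, and IVM replicate 1 was the highest of its group. The mean was 3229 ± 940 FPKM (SD, n = 3) in IVM and 5228 ± 328 FPKM (SD, n = 3) in IVO, a ratio of 1.62. On the log2(FPKM + 1) scale the difference was 0.73 (SE 0.21, limma adjusted p = 0.0442).

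Tcl1b1 was the most abundant member by mean level. It had 4499, 3797 and 3593 FPKM in IVM and 5367, 5148 and 5578 FPKM in IVO samples, again without overlap. Its means were 3963 ± 475 and 5364 ± 215 FPKM (SD, n = 3 each), a ratio of 1.35 and a log2 difference of 0.44 (SE 0.13, limma adjusted p = 0.0495).

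Tcl1b3 was the third member whose groups did not overlap. It had 1439, 1025 and 1152 FPKM in IVM and 1867, 1712 and 1843 FPKM in IVO samples. The means were 1205 ± 212 and 1808 ± 83.1 FPKM (SD, n = 3 each), a ratio of 1.5 and a log2 difference of 0.60 (SE 0.16, limma adjusted p = 0.0372).

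For the remaining members the groups overlapped. Tcl1b2 had 2482, 2064 and 2184 FPKM in IVM and 2640, 2246 and 3157 FPKM in IVO samples, with IVO replicate 2 below the highest IVM sample. Its log2 difference of 0.25 (SE 0.17) did not pass the test (limma adjusted p = 0.329) and was 0.12 without IVO replicate 3. Tcl1b4 had 1059, 985 and 865 FPKM in IVM and 1146, 1055 and 1261 FPKM in IVO samples, where the highest IVM and the lowest IVO sample differed by only a few FPKM. Its log2 difference was 0.25 (SE 0.15, limma adjusted p = 0.271), or 0.17 without IVM replicate 3.

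Tcl1b5 was the least abundant member. It had 355, 228 and 238 FPKM in IVM and 355, 267 and 375 FPKM in IVO samples, so that IVM replicate 1 stood at the level of IVO replicate 1. Its log2 difference was 0.29 (SE 0.23, limma adjusted p = 0.411), and it was 0.50 without IVM replicate 1 and 0.18 without IVM replicate 2.

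**Figure D1:**
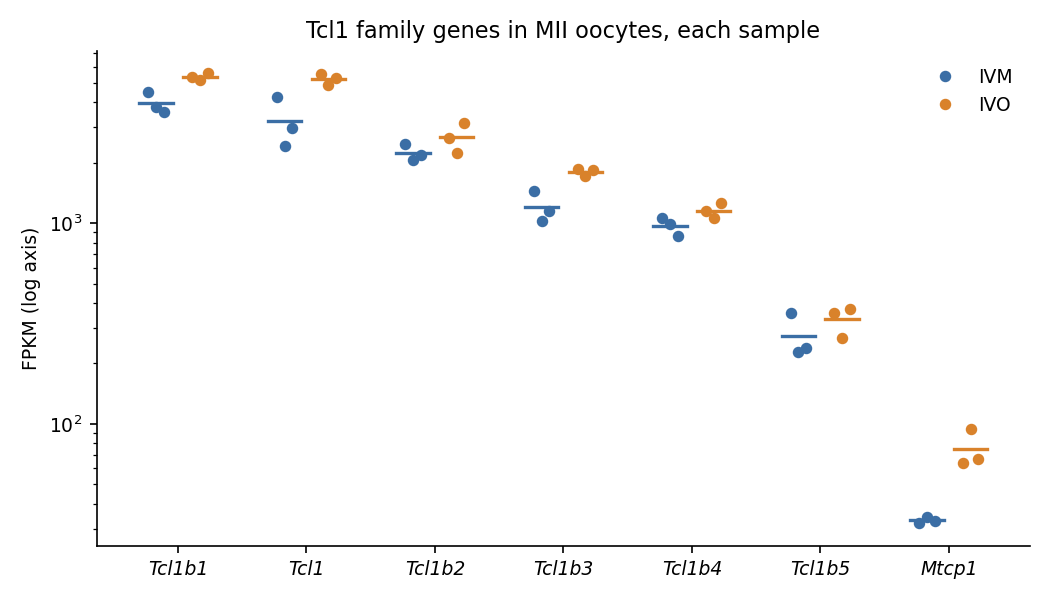
FPKM on a log axis of the 6 members and of Mtcp1, the relative on chromosome X, in each sample, with IVM in blue, IVO in orange and the group mean as a line (n = 3). The groups do not overlap for Tcl1b1, Tcl1, Tcl1b3 and Mtcp1 and overlap for Tcl1b2, Tcl1b4 and Tcl1b5.

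Counted together, 0 of the 6 members was a differentially expressed gene (DEG), which required a |log2FC| of at least 1 and a limma adjusted p under 0.05. An unadjusted limma p under 0.05 was found for 3 members. The share of all genes tested with such an unadjusted p was not computed, here or for the lists below. These unadjusted counts thus have no background to be read against. Among the 18818 genes tested, 18.5% were DEGs in either direction and 0.606% were DEGs higher in IVO. Without the fold threshold, 3 of the 6 members (Tcl1, Tcl1b1 and Tcl1b3) were higher in IVO at an adjusted p under 0.05, against 1.87% of all genes tested. The same 3 had their lowest IVO value above their highest IVM value, which 9.62% of all genes tested had.

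The p-values of these 3 lay close to the threshold. Without IVM replicate 1 the adjusted p was 0.0231 for Tcl1, 0.0575 for Tcl1b1 and 0.0318 for Tcl1b3. With each of the other 5 samples left out in turn, the adjusted p of all 3 genes exceeded 0.05, at 0.0913 to 0.125 for Tcl1, 0.115 to 0.139 for Tcl1b1 and 0.0876 to 0.112 for Tcl1b3. The log2 differences stayed above 0 for all 6 members throughout, at 0.55 to 0.95 for Tcl1, 0.38 to 0.54 for Tcl1b1 and 0.49 to 0.73 for Tcl1b3.

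The members lay above the median of the whole table. The median log2FC of all genes tested was -0.30 and 34.0% had a log2FC above 0, whereas the median of the members was 0.37 and all 6 were above 0. Among all genes tested, the log2FC of Tcl1 was at percentile 96.8, that of Tcl1b3 at 94.6 and that of Tcl1b1 at 90.2, and the lowest of the members, Tcl1b2, was at 80.8. Median-ratio scaling, which brought the median of all genes to -0.04, brought that of the members to 0.69, and quantile normalization gave 0.17 and 0.74. Removing each library's trend with gene length gave 0.05 for all genes and 0.73 for the members. The part of the fragment length in these differences was not tested otherwise.

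The size of the difference thus depended on the scaling. Relative to the median of all genes, the difference as deposited was 1.03 for Tcl1, 0.89 for Tcl1b3, 0.74 for Tcl1b1, 0.59 for Tcl1b5, 0.55 for Tcl1b4 and 0.54 for Tcl1b2. With median-ratio scaling or with every library scaled to the same sum, Tcl1 was a DEG, at a log2FC of 1.06 and 1.07 (limma adjusted p = 0.0197 and 0.0139). No other member reached a log2FC of 1 in any of the 20 fits.

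**Figure D2:**
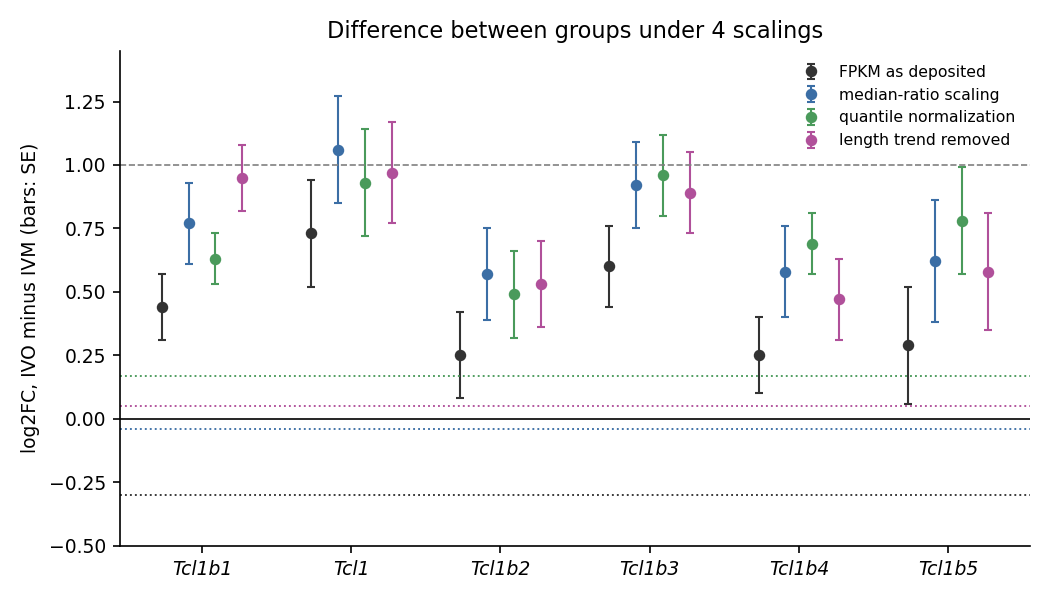
Log2FC of each member, IVO minus IVM, with its SE, from the FPKM as deposited and after 3 other scalings. The dotted lines are the medians of all genes tested in the same colours, the dashed line is a log2FC of 1, and every point lies above the median of its own colour.

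The FPKM of the 6 members was also summed, which depends on how reads were divided between copies only through their lengths (1082 bases for Tcl1b2 and 1045 for Tcl1b3 in the deposited table). The sum was 14100, 10530 and 11020 FPKM in IVM and 16910, 15310 and 17480 FPKM in IVO samples. All 3 IVO samples were higher, with means of 11880 ± 1930 and 16570 ± 1120 FPKM (SD, n = 3 each), a ratio of 1.39 and p = 0.1 by a two-sided exact permutation test, the smallest p that 3 samples against 3 allow. As a part of the summed FPKM of all listed genes, the family held 0.592% ± 0.0874 in IVM and 1.04% ± 0.0542 in IVO samples (SD, n = 3 each). For the 5 Tcl1b genes alone the sum was 8655 ± 1020 FPKM in IVM and 11340 ± 893 FPKM in IVO (SD, n = 3 each), a ratio of 1.31 (exact permutation p = 0.1). In pools of oocytes, fewer cells with a transcript and less of it in each cell cannot be told apart.

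The order of the members was nearly the same in every sample. From high to low it ran Tcl1b1, Tcl1, Tcl1b2, Tcl1b3, Tcl1b4 and Tcl1b5. In 14 of the 15 pairs of members the within-sample difference of log2 levels had 1 sign in all 6 samples, which gave p = 0.0312 each by a two-sided exact sign permutation test (0.0335 adjusted over the 15 pairs), the smallest raw p that 6 samples allow. Tcl1b1 and Tcl1 were the exception, with Tcl1 higher in 1 of 6 samples, a mean log2 difference of -0.18 ± 0.25 (SD, n = 6) for Tcl1 minus Tcl1b1 and exact permutation p = 0.0625, also after adjustment. Tcl1 stood at 0.641 to 1.03 times the FPKM of Tcl1b1. The length that the deposited table gives for Tcl1b1 was 664 bases, while its annotated transcript here has 1040 bases, and its level per length depends on which is used.

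Across ranks, the family covered a wide range. Among the 53700 Ensembl genes, Tcl1b1 held rank 54 in IVM and rank 25 in IVO by mean FPKM, and Tcl1 rank 70 and rank 27. Tcl1b5 held rank 997 and rank 676. The most abundant member had 12.7 to 19.3 times the FPKM of the least abundant one in the same sample.

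The make-up of the family signal shifted by a few percentage points. Tcl1 made up 30.3%, 23.1% and 27.1% of the family sum in IVM and 32.7%, 31.9% and 30.1% in IVO samples, and the lowest IVO value was below the highest IVM value. The mean was 26.8% ± 3.59 in IVM and 31.6% ± 1.34 in IVO (SD, n = 3 each, exact permutation p = 0.2), and the difference of 4.76 points was 2.90 without IVM replicate 2 and 2.70 with the length trend removed. Tcl1b1 held 33.5% ± 2.22 and 32.4% ± 1.04, which was within the spread (exact permutation p = 0.6), and its difference of -1.1 points changed sign, to 0.166 without IVM replicate 2 and to 2.78 once the length trend was removed.

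Smaller members showed shifts in both directions. Tcl1b3 went from 10.1% ± 0.364 to 10.9% ± 0.333, while Tcl1b4 went from 8.24% ± 0.981 to 6.96% ± 0.227 and Tcl1b5 from 2.28% ± 0.208 to 2.00% ± 0.219 (SD, n = 3 each). These 3 did not overlap between groups before rounding, at exact permutation p = 0.1 each (0.2 adjusted over the 6 members), so no share passed a test. The difference for Tcl1b4, -1.28 points, was -0.722 without IVM replicate 2, and that for Tcl1b5, -0.285 points, was -0.165 without IVM replicate 1 and -0.159 without IVO replicate 2. That for Tcl1b3, 0.794 points, was 0.436 with the length trend removed. Tcl1b2 held 19.0% ± 1.22 in IVM and 16.1% ± 1.75 in IVO samples (exact permutation p = 0.2).

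**Figure D3:**
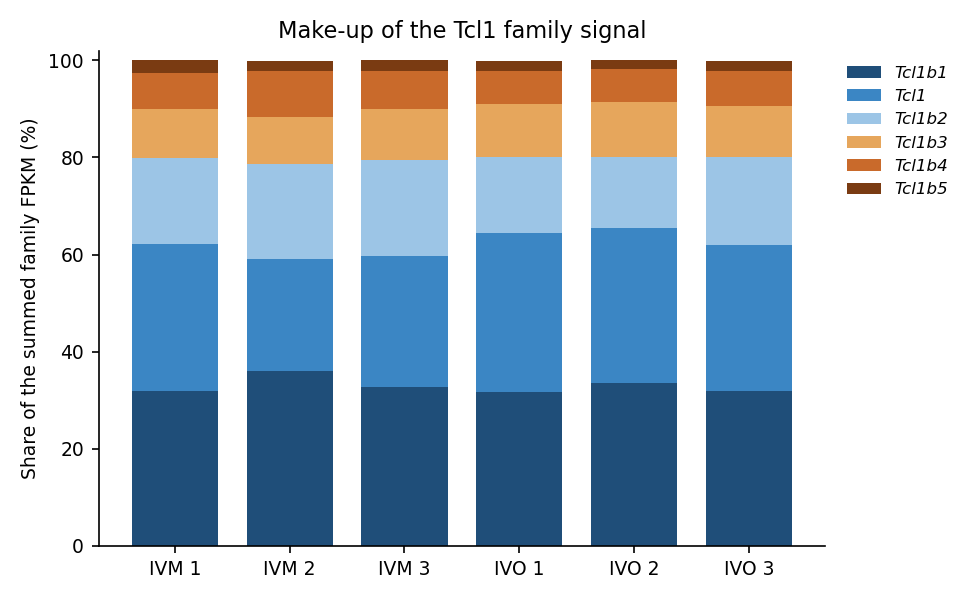
Percent of the summed FPKM of the 6 members that each member held in each of the 3 IVM and 3 IVO samples, as stacked bars that add to the whole. Tcl1b1 and Tcl1 together make up more than all other members in every sample, and Tcl1 takes its smallest share in IVM replicate 2.

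In some samples the members lay on the same side of their group means. In IVM replicate 1 all 6 members lay above the mean of their group, by 0.13 to 0.44 on the log2 scale, and in IVM replicate 3 none did. In IVO replicate 3 all 6 lay above the group mean, by 0.01 to 0.25, and in IVO replicate 2 none did. In IVM replicate 2 and IVO replicate 1 the members above the group mean numbered 1 and 4. The share of all genes tested that did so in each sample was not computed, so whether this was particular to the members is not known. The 5 tested Ensembl genes closest to the mean pattern of the members over the 6 samples, by Euclidean distance of centred log2 values, were Tmem35b (0.10), Hmgb3, Spam1 and Ttc8 (0.17 each) and Gm20356 (0.19). For the members themselves this distance was 0.17 for Tcl1b1 to 0.48 for Tcl1.

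Mtcp1, the relative of Tcl1 on chromosome X (GRCm39 chrX:74453878-74460197, - strand), was the one other family gene in the table. It had 32.0, 34.3 and 32.8 FPKM in IVM and 64.0, 94.2 and 66.7 FPKM in IVO samples, with no overlap and a tight IVM group. The means were 33.1 ± 1.18 and 75 ± 16.7 FPKM (SD, n = 3 each), a ratio of 2.27. Mtcp1 was higher in IVO as a DEG, with a log2FC of 1.14 (SE 0.21, limma adjusted p = 0.00958), and was called in 19 of 20 fits. Its log2FC was 0.96 to 1.63 over the 20 fits, and the call was lost without IVO replicate 2 (0.96). Its level remained far below that of Tcl1b5, the lowest member of the cluster.

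Kinases that TCL1 proteins bind were low in comparison with the members. Akt2 had 21.0, 15.5 and 22.8 FPKM in IVM and 6.12, 9.20 and 5.72 FPKM in IVO samples, without overlap. It fell by 1.38 on the log2 scale in IVO (SE 0.25, limma adjusted p = 0.00988), and was called in 18 of 20 fits. Akt1 averaged 10.7 FPKM in IVM and 10.9 FPKM in IVO samples, with a log2FC of 0.06 (SE 0.26, limma adjusted p = 0.895).

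Of 40 genes of the AKT pathway, from PI 3-kinase subunits to AKT substrates, 30 were tested. Of these limma called 3 lower in IVO, against 17.9% of all genes tested, and 0 higher. At an unadjusted p under 0.05, 6 were lower and 1 was higher. The median log2FC of the 30 was 0.07, against -0.30 for all genes tested, and 19 of the 30 were above 0. Besides Akt2, the DEGs were Pik3cd, a catalytic subunit of PI 3-kinase, and Tsc2, which restrains the kinase mTOR. Pik3cd had 51.5, 42.7 and 43.3 FPKM in IVM and 14.1, 12.4 and 12.6 FPKM in IVO samples and fell by 1.74 (SE 0.18, limma adjusted p = 0.00181). Tsc2 had 8.0, 4.57 and 6.03 FPKM in IVM and 1.35, 0.26 and 1.61 FPKM in IVO samples and fell by 1.84 (SE 0.35, limma adjusted p = 0.0113). For Tsc2, low in every sample, a pseudocount of 5 gave a log2FC of -0.88, under the fold threshold, and one of 0.1 gave -2.67.

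**Figure D4:**
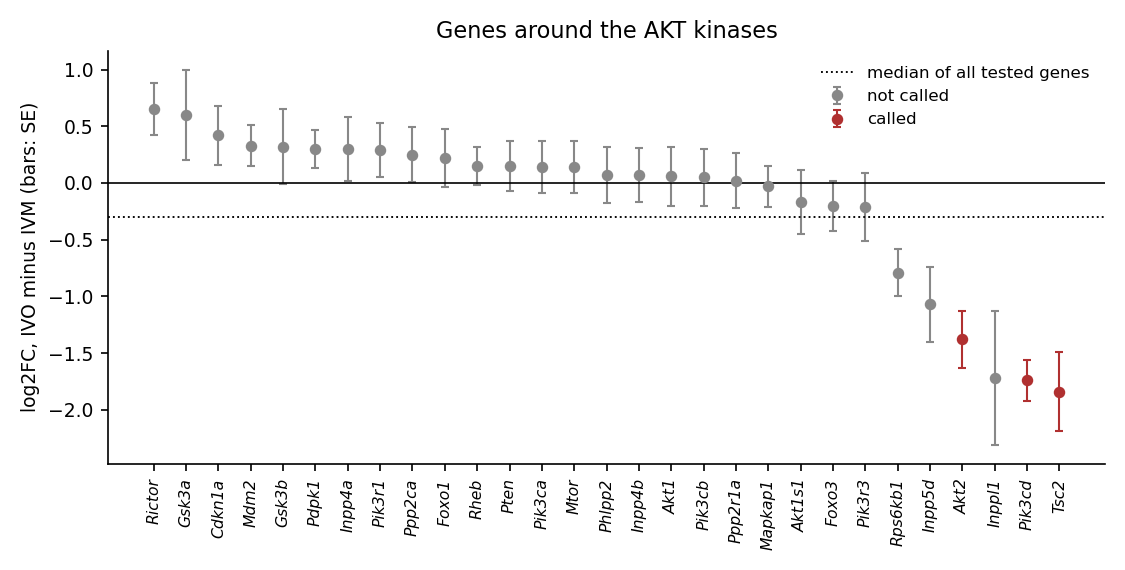
Log2FC, IVO minus IVM, with its SE, of 29 tested genes of the AKT pathway in falling order, with DEGs in red and the median of all genes tested as a dotted line. Akt2, Pik3cd and Tsc2 are the DEGs and lie at -1.38, -1.74 and -1.84.

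A second list held 11 genes for proteins described as binding human TCL1, Akt1 and Akt2 among them. Of these, 8 were tested, with a median log2FC of -0.09. At an unadjusted limma p under 0.05, 3 were lower in IVO and 0 higher. Called as DEGs were 2 lower in IVO, against 17.9% of all genes tested, and 0 higher. The pair were Akt2 and Atm, a kinase of the DNA damage response. Atm had 119, 107 and 151 FPKM in IVM and 41.0, 12.0 and 47.7 FPKM in IVO samples, without overlap. It fell by 2.07 (SE 0.49, limma adjusted p = 0.0233), but without IVM replicate 1, 2 or 3 its adjusted p was 0.0775, 0.068 and 0.0864.

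The genes around the cluster were read from the same fit. Of 42 annotated genes within 500000 bases, 22 were matched by identifier and 8 were tested. Of the 8, limma called 2 lower in IVO, against 17.9% of all genes tested, and 0 higher. At an unadjusted p under 0.05, 3 were lower and 0 higher. The nearest tested gene before the cluster was the processed pseudogene Gm47672, 10572 bases away, with a log2FC of 0.05 (SE 0.24, limma adjusted p = 0.903). The nearest after it was Bdkrb1, a bradykinin receptor gene, 375640 bases away, with a log2FC of 0.51 (SE 0.33, limma adjusted p = 0.303).

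The DEGs of this region lay farther out. Glrx5, a glutaredoxin of mitochondrial iron-sulfur cluster assembly 103107 bases before the cluster, had 49.0, 29.8 and 35.5 FPKM in IVM and 16.5, 15.7 and 16.4 FPKM in IVO samples, and fell by 1.15 (SE 0.23, limma adjusted p = 0.0123). Atg2b, a lipid transfer protein of autophagosome formation 390559 bases after it, had 1151, 1262 and 1200 FPKM in IVM and 449, 537 and 573 FPKM in IVO samples, and fell by 1.22 (SE 0.15, limma adjusted p = 0.0028). Neither was called with median-ratio scaling, where the log2FC was -0.84 and -0.89, and Glrx5 was not called without IVM replicate 1 (-0.96).

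**Figure D5:**
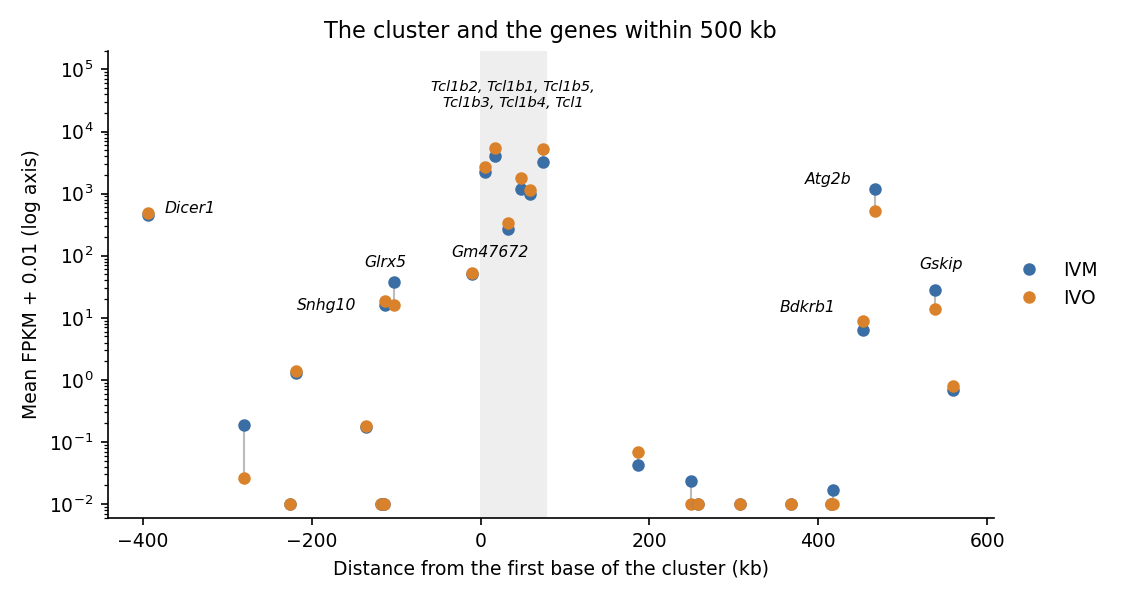
Mean FPKM plus 0.01 on a log axis (n = 3) of the 6 members, inside the grey band, and of the 22 listed genes within 500 kb, by distance in kb from the first base of the cluster, with IVM in blue and IVO in orange. All 6 members have the IVO point above the IVM point, while Glrx5 and Atg2b have it below.

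Markers of oocytes were read from the same fit. The median log2FC of 23 oocyte markers, all tested, was -0.64. Of these, limma called 8 lower in IVO, against 17.9% of all genes tested, and 0 higher. At an unadjusted p under 0.05, 10 were lower and 1 was higher. Zp3, a zona pellucida glycoprotein, had 892, 326 and 588 FPKM in IVM and 58.5, 64.4 and 65.1 FPKM in IVO samples, and fell by 3.13 (SE 0.35, limma adjusted p = 0.00202). Gdf9 had a log2FC of -0.39 (SE 0.22, limma adjusted p = 0.232). Without the fold threshold, 1 of the 23 was higher in IVO at an adjusted p under 0.05, against 1.87% of all genes tested, and 9 were lower. The share of all genes tested that were lower without the fold threshold was not computed.

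Other multicopy oocyte gene families were set beside the cluster for their values alone. Obox is a family of homeobox genes, and most of the 55 genes listed under this name were named as pseudogenes. Of the 55, 6 were tested, among them the pseudogene Obox3-ps8. Of these 6, 0 were DEGs, against 18.5% of all genes tested (1 at an unadjusted p under 0.05 by limma). All 6 had a log2FC above 0 (34.0% of all genes tested had), and the median was 0.19. Of the 4 Oog genes, 1 was a DEG higher in IVO, against 0.606% of all genes tested (Oog1, named after its values were seen, with a log2FC of 1.5, SE 0.30 and limma adjusted p = 0.0131), and the median was 0.35. Without IVM replicate 1 or 2 the adjusted p of Oog1 was 0.0559 and 0.051. Without the fold threshold, 1 of the 6 Obox genes and 2 of the 4 Oog genes were higher in IVO at an adjusted p under 0.05, against 1.87% of all genes tested. Besides Oog1 these were Obox2 and Oog3, named after their values were seen. Their log2FC was 0.69 and 0.84 (limma adjusted p = 0.0281 and 0.00488). No difference between families was tested.

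Cells in which Tcl1 is also expressed, or that could be carried over, were followed by their markers. The summed FPKM of 18 granulosa and cumulus markers was 71.8 to 92.4 in IVM samples and 51.6 to 77.9 in IVO samples, with Fshr, the FSH receptor, at 6.14 to 16.3 and 10.5 to 13.8 FPKM. Cyp19a1 and Amhr2, named after their values were seen, were at 16.3 to 23.1 and 3.14 to 27.9 FPKM over the 6 samples, and Amh was at 0 in all of them. Has2, Ptx3, Tnfaip6 and Fst, also named after their values were seen, averaged under 1 FPKM in both groups and were not tested. They were higher in IVO without overlap, at means of 0.0933, 0.02, 0.0567 and 0.11 FPKM in IVM and 0.3, 0.113, 0.427 and 0.86 FPKM in IVO. These IVM means lie under the 0.196 to 0.232 FPKM that 3 fragments on a transcript of 1000 bases are worth. The share of untested genes without overlap was not computed. The other untested markers of this list overlapped between groups. Of the 5 tested, 1 was a DEG, lower in IVO, against 17.9% of all genes tested (Nr5a2, named after its values were seen), which was not called without IVM replicate 1 or IVO replicate 1 (log2FC of -0.94 and -0.93). The 6 T cell markers summed to 0.42 to 10.2 FPKM in IVM and 2.58 to 10.2 FPKM in IVO, of which Trac (0 to 10.1 FPKM over the 6 samples, named after its values were seen) was the larger part in all samples but IVM replicate 2. Cd3d was at 0 in all 6 samples, and the pan-leukocyte gene Ptprc was at 0 to 0.06 and 0 to 0.16 FPKM.

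The 5 B cell markers summed to 65 to 89.5 FPKM (IVM) and 72.5 to 83.9 FPKM (IVO). Most of this was Ms4a1, at 43.6 to 65 and 64.9 to 79.0 FPKM, whereas the antigen receptor genes Cd79a and Cd79b were at 0.09 FPKM or less in every sample (Ms4a1, Cd79a and Cd79b were named after their values were seen). The 4 erythroid markers summed to 0 to 0.98 and 0 to 5.82 FPKM, and the 5 oviduct markers to 3.16 to 3.79 and 3.43 to 5.65 FPKM, with Pax8 at 0 in all 6 samples. The summed members, at 10530 FPKM or more in every sample, exceeded each of these sums by far.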

How the data were processed

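The authors cleaned the read pairs (SeqPrep, Sickle), mapped them with HISAT2 2.1.0 (GRCm39), estimated abundance with RSEM 1.3.3 and tested counts with DESeq2 1.24.0. The deposited values are FPKM per gene and sample, so no count test was run. The annotation release is not given in the sources used here. The deposited group means equalled the means of the samples and were not used.

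FPKM was tested as log2(FPKM + 1) in R 4.3.3 with limma 3.58.1 (eBayes with trend, two-sided) over 18818 genes that averaged 1 FPKM or more across all 6 samples, with Benjamini-Hochberg adjustment over all of them. Sums, shares and orders were tested by exact permutation. On simulated data with 200 changed genes, the fit called 125 of these and 6 unchanged genes. Depth was inferred from values worth at most 5.5 fragments in genes of 500 to 4000 bases.

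Alternatives were pseudocounts of 0.1 and 5, no filter or one at 5 FPKM, median-ratio, same-sum and quantile scaling, Ensembl genes only, removal of the trend with gene length (lowess span 0.3), no eBayes trend, array weights, a replicate block and leaving out each sample. Members and lists were chosen with earlier results of these data known. Named were all members, other Tcl1 family genes, Akt1 and Akt2, up to 4 called genes of each list, the nearest tested neighbours, the 5 genes closest in pattern and defining markers, and 1 gene of that rule is not reported here. Start regions came from RefSeq (GRCm38.p6), all 6 members matched, and gene positions from GENCODE on GRCm39. Python 3.11.15 and Biopython 1.88 were used.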

Additional observations from a re-analysis of the deposited data

How the results depend on the processing

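Of 323 values recomputed under alternatives, 279 kept their direction and their side of the threshold or stayed within the spread, 2 passed the threshold newly and 42 moved. None of the called genes named in the text changed direction, while the share difference of Tcl1b1, which was not called, changed sign without IVM replicate 2 and with the length trend removed. The log2FC of all 6 members was above 0 in all 20 fits. Median-ratio and same-sum scaling took Tcl1 to a log2FC of 1.06 and 1.07 and the members called to 1 each. For the log2 difference of the family sum, 0.489 as deposited, median-ratio, same-sum, quantile, Ensembl-only and length-trend fits gave 0.82, 0.83, 0.73, 0.73 and 0.83, and for the Tcl1b sum 0.72, 0.73, 0.65, 0.63 and 0.77. With the length trend removed, the share difference was 2.78 points for Tcl1b1 and 0.436 for Tcl1b3. The filter, eBayes, array weight and block alternatives could not enter sums and shares.

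The 3480 DEGs became 2273 with a pseudocount of 5, 1584 with Ensembl genes only and median-ratio scaling, 2068 without the length trend and 929 without it and with the replicate block. Tsc2 was not called with a pseudocount of 5 (-0.88). AKT pathway calls fell to 1 with the length trend removed and the block. Partner calls were 1 without a filter and 0 with quantile normalization or with the length trend removed and the block. Neighbouring calls were 1 with a pseudocount of 5 and 0 with median-ratio, same-sum, quantile or Ensembl-only scaling or the length trend removed with the block. The granulosa call became 0 under these 6 settings, the block and the removed length trend. Leaving out 1 sample gave 1 to 2 partner, 1 to 3 neighbouring and 0 to 1 granulosa calls, and 2363 to 3304 DEGs.

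The replicate numbers were shared between groups, but same-numbered samples did not deviate together (r = -0.0618, -0.0176 and -0.107), and samples did not all correlate best with their own number. With the number as a block, 2991 DEGs were called and the adjusted p was 0.0593 for Tcl1, 0.145 for Tcl1b1 and 0.0834 for Tcl1b3. Without the eBayes trend it was 0.0818, 0.142 and 0.0822, and without a filter 0.136, 0.205 and 0.0908. The cause was not tested. Over the 20 fits, the limma adjusted p was under 0.05 in 11 for Tcl1, 11 for Tcl1b3 and 7 for Tcl1b1. For Tcl1b4 it was so in 2 fits, and for Tcl1b2 and Tcl1b5 in 1 each. With 3 pools a group, an exact test of 1 value cannot go below 0.1.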
